A study of Mus musculus with 45 samples.

Results

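Interstitial macrophages (IM) and alveolar macrophages (AM) from the lungs of C57BL/6J mice were compared across all genes before any lipopolysaccharide (LPS, a bacterial cell wall component) was given. The comparison takes the 2 IM libraries and the 4 AM libraries whose labels read 0 h, which are 6 of the 45 libraries in the series. The other libraries come from later times after intraperitoneal or intranasal LPS, or from inflammatory monocytes (iMo), and the 2 iMo libraries at 0 h serve here as a further lung cell type beside IM and AM. Each library was made from 500 to 5000 cells isolated by flow sorting, with polyA RNA and a modified Smart-seq2 protocol, which does not keep the strand. Both IM libraries carry 1 title code and the letters A and B. Of the AM libraries, 3 carry the same code with the letters A, C and D, and 1 carries another code and no letter and is called N here. Neither the surface markers of the sort nor the age of the mice is given, nor whether libraries came from separate mice. The p-values therefore measure only the spread between libraries. That spread was pooled over the 27 libraries in 12 groups of the fit described below, most of them after LPS.

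The lung holds resident macrophages in different places. AM sit in the air spaces, take up surfactant lipid and inhaled particles, and are known to depend on the cytokine GM-CSF, on TGF-beta and on the nuclear receptor PPARgamma. IM sit in the tissue around airways, vessels and nerves, are known to depend more on the growth factor CSF1, and are recognised by complement C1q and the folate receptor Folr2.

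The labels were checked first with 4 defining genes. In all that follows, values are the deposited TPM, a length-scaled share of transcripts, IM and iMo values run in the order A and B, and AM values in the order N, A, C and D. C1qa, a chain of the complement recognition molecule C1q, had 1077 and 973 TPM in IM, against 0.463, 0, 0 and 6.83 TPM in AM. Folr2 had 186 and 185 TPM in IM, against 0.697, 0.476, 0 and 1.05 TPM in AM. Both genes were high in each IM library and near 0 in each AM library, with no overlap. Siglecf, a sialic acid-binding receptor used to sort AM, had 2.44 and 4.22 TPM in IM, against 69.9, 144, 161 and 228 TPM in AM. Ear1, a ribonuclease of the eosinophil-associated family whose near-identical copies Ear2 and Ear10 may share its reads, had 7.51 and 5.79 TPM in IM, against 315, 338, 181 and 307 TPM in AM. The markers thus went with the labels in all 6 libraries.

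The C1q genes lie close together on chromosome 4 and moved together here, so the 250 bases before the start of C1qb and C1qc are shown, beside those of the AM markers Siglecf and Ear1, from RefSeq on build GRCm38.p6. Capitals mark GAGGAA, a core bound by the macrophage factor PU.1, and TGCTGA, a MAF half-site, each searched on both strands. In order, the windows are chr4:136886201-136886450 and chr4:136892915-136893164 on the minus strand, chr7:43351091-43351340 on the plus strand and chr14:43819640-43819889 on the minus strand.
C1qb: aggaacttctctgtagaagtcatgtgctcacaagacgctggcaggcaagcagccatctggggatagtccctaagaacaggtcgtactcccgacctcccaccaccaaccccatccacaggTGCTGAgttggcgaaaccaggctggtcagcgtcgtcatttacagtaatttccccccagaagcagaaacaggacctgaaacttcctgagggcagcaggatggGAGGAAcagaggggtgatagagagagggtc
C1qc: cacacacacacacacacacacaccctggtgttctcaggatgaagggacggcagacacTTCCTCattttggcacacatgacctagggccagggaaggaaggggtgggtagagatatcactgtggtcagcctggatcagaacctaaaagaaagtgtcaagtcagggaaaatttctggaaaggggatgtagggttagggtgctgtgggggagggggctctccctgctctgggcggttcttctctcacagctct
Siglecf: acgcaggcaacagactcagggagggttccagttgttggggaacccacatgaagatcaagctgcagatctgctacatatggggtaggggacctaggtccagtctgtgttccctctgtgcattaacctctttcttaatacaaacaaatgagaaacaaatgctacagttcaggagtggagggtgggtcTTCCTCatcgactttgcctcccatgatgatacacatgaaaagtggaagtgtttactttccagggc
Ear1: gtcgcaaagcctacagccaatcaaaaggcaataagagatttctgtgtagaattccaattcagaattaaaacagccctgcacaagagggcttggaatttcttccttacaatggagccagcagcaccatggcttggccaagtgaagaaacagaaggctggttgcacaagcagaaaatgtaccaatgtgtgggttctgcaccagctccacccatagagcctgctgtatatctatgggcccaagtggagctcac
GAGGAA occurs in C1qb, C1qc and Siglecf, on either strand, and in 23.1% of the windows of the same length of all 27025 genes with a listed promoter. TGCTGA occurs in C1qb only among these 4, and in 15.8% of all windows. A match describes these letters and is not shown to be a site.

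**Figure D1:**
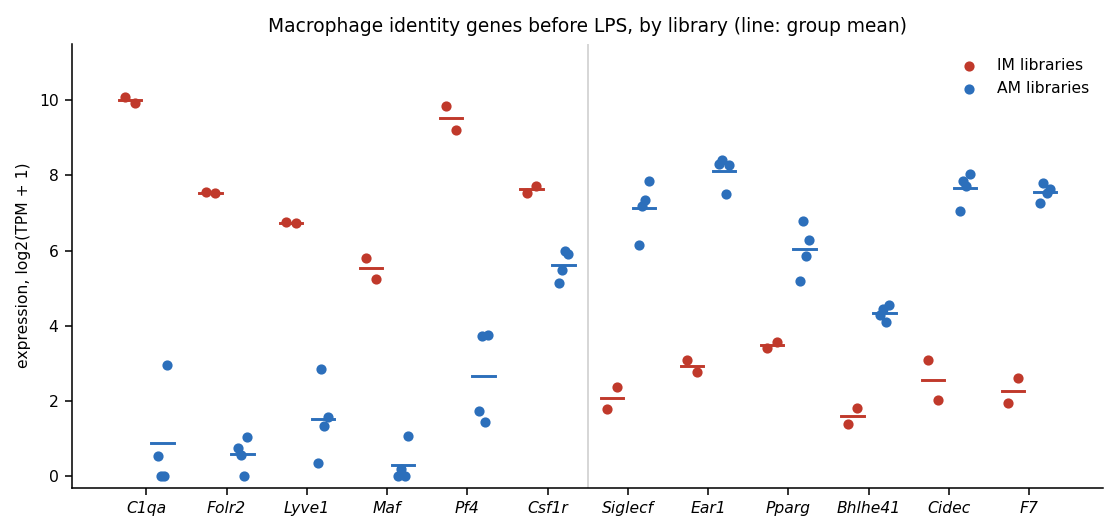
Expression of 12 identity genes as log2(TPM + 1) in each IM library (red, left of each pair) and each AM library (blue, right), with a line at the group mean. The 6 genes on the left are higher in both IM libraries than in every AM library, and the 6 on the right are lower.

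Differences were tested with limma on log2(TPM + 1) over 8937 genes that reached 5 TPM in at least 2 of 27 libraries, and a gene was called at a Benjamini-Hochberg adjusted p under 0.05. IM differed from AM at 2326 genes, of which 1344 were higher in IM, 15% of the genes tested, and 982 were lower, 11%. Of the genes higher in IM, 714 differed by 2 or more on the log2 scale and 157 by 4 or more, while 263 and 29 of the lower genes did. A difference or log2 fold change is the IM mean minus the AM mean of log2(TPM + 1). The IM and AM libraries did not overlap at 3703 of the 8937 genes tested, so lack of overlap alone was common. It held for 1331 of the genes called higher and 967 of those called lower. The split depends on the scale and on the libraries: with quantile normalization 1501 genes were higher and 1992 lower, and with TPM rescaled without the ribosomal Rn45s and the mitochondrial leucyl-tRNA synthetase Lars2 1303 were higher and 2191 lower. The median log2 fold change of all genes tested was 0.00495 as deposited, -0.12 after quantile normalization and -0.27 after that rescaling. Rn45s held 5.17% and 4.87% of the column sum in IM, against 30.4%, 6.48%, 23.8% and 6.9% in AM. With the title code as a covariate 1334 genes were higher and 1441 lower, and without the AM library N, which carries the other code, 1208 were higher and 1212 lower. Without the 2 AM libraries of highest Rn45s share, 1064 genes were higher and 1123 lower. With only the 6 libraries compared in the filter and the fit, 1062 of 7856 genes tested were higher and 806 lower. Leaving out an IM library had the most effect on the number of calls among the libraries left out in turn: 867 genes were higher and 593 lower without A, and 804 were higher and 621 lower without B. The filter used all 27 libraries, so a listed gene could pass it through 1 group alone, and the counts over lists below are descriptions. Each count is to be read beside the 15% of all genes tested that were higher in IM and the 11% that were lower. Column sums lay between 454465 and 461029 TPM in IM, against 382880 to 509796 TPM in AM, and the read depth behind the values is unknown. The IM libraries correlated with each other at r = 0.947 across genes, AM libraries with each other at 0.939 to 0.966, and IM with AM at 0.663 to 0.72, where genes are not independent replicates.

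**Figure D2:**
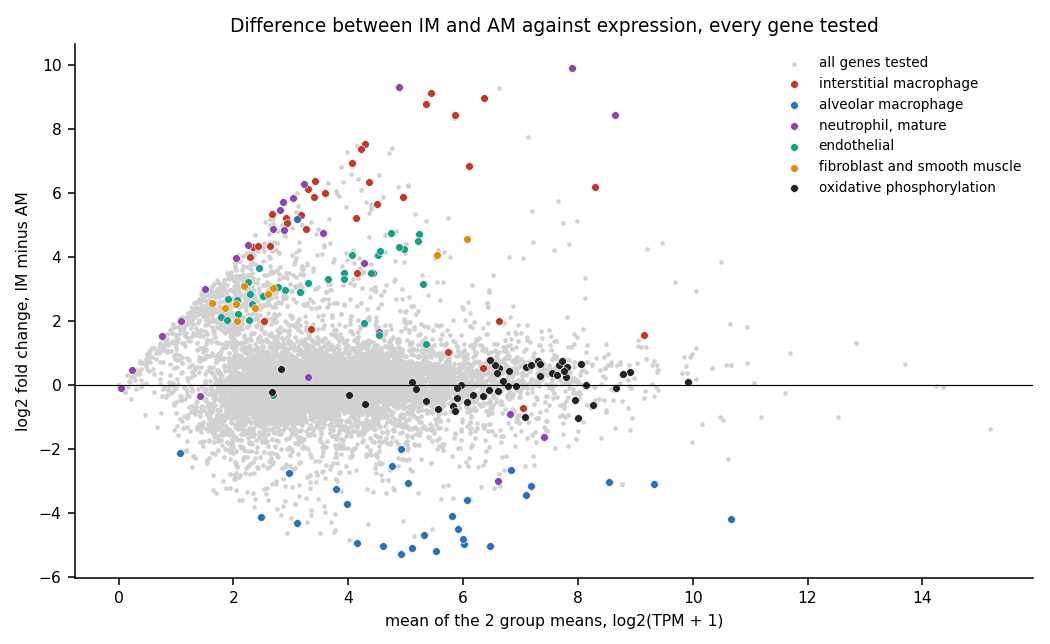
Log2 fold change (IM minus AM) against the mean of both group means on the log2(TPM + 1) scale for the 8937 genes tested, with 6 gene lists in colour. Interstitial macrophage, neutrophil, endothelial and fibroblast genes lie mostly above the line, alveolar macrophage genes below it except Tmem37, and oxidative phosphorylation genes around it.

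The interstitial macrophage list held 36 genes, of which 34 passed the filter on low values. Of these, 31 were higher in IM and none lower, beside 15% higher among all genes. Their median log2 fold change was 5.34, beside an all-gene median of 0.00495. Without IM library A, or without B, 30 passed the filter, so some members passed only with both IM libraries in. The lists were chosen with earlier results of these data known, so the count is a description and no test. In bulk samples such as these, fewer cells of a type and less RNA per cell cannot be told apart. The C1q chains summed to 3117 and 2815 TPM in IM, against 1.29, 1.45, 2.83 and 18.6 TPM in AM. Retnla, a secreted resistin-like protein of alternatively activated macrophages, had 3593 and 942 TPM in IM, against 0.843, 5.18, 1.68 and 4.78 TPM in AM (difference 8.98 on the log2 scale, SE 0.74, limma adjusted p = 3.1e-09). It was high in both IM libraries, with A above B. Lyve1, a hyaluronan receptor of perivascular macrophages, had 107 and 105 TPM in IM, against 0.288, 6.29, 1.53 and 1.96 TPM in AM. Fcrls, an Fc receptor-like protein also found in microglia, had 127 and 71.6 TPM in IM, against 0.126, 0.516, 0 and 2 TPM in AM. Neither gene overlapped between the groups. Apoe, the lipid carrier apolipoprotein E, had 3148 and 2329 TPM in IM, against 20.3, 31.5, 31.5 and 79.9 TPM in AM (difference 6.21 on the log2 scale, SE 1.1, limma adjusted p = 9.98e-05), and it was also high in iMo at 1200 TPM in each library. Of the 3 members not called, Trem2 had 79.4 and 70.5 TPM in IM, against 28.3, 45.3, 31.9 and 41.2 TPM in AM, with an adjusted p of 0.248 by limma. The other 2 were Cd14, a co-receptor for LPS, and Fcgrt, the neonatal Fc receptor. Selenop, a plasma selenoprotein that carries selenium, passed the test only with both IM libraries in the fit (log2 fold change 1.57), since its limma adjusted p was 0.141 without A and 0.08 without B, and 0.185 without the 2 AM libraries of highest Rn45s share.

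Several of these genes were high in IM alone among the 3 cell types. Outside the lists of other cell types, the genes with the largest difference of IM from both AM and iMo included C1qa, Ccl8, Retnla, C1qc, Folr2, Pf4, Cxcl13, Fcrls, C1qb, Cd209f and Mgl2. Cd209f, a lectin of the mouse DC-SIGN family whose copies may share reads, had 57.4 and 51.7 TPM in IM, against 0.454, 0, 0 and 1.03 TPM in AM and 0 in both iMo libraries. Fxyd2, a regulatory subunit of the sodium pump, had 60.2 and 42.5 TPM in IM, against 0.165, 0, 1.31 and 1.49 TPM in AM and 0 and 1.17 TPM in iMo. Mucl1 had 34.2 and 33.1 TPM in IM and was listed at 0 in all AM and iMo libraries. These 3 were not among the interstitial macrophage genes listed. H2-Q10, a secreted class I molecule best known from liver, had 63.9 and 42 TPM in IM, against 0.597, 0, 0.34 and 1.16 TPM in AM and 1.68 and 1.21 TPM in iMo, but its reads may be shared with other H2-Q genes.

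The alveolar macrophage list held 30 genes, of which 28 passed the filter, and 27 of those were lower in IM, beside 11% of all genes. The list's median log2 fold change was -3.92. Among the 27, the mean in IM was between 0% and 23.9% of the mean in AM, with a median of 5.27%, and 13 of them were under 5%. F7, coagulation factor VII, had 2.88 and 5.08 TPM in IM, against 152, 223, 185 and 198 TPM in AM (difference -5.28 on the log2 scale, SE 0.45, limma adjusted p = 4.21e-09). Cidec, a protein that fuses lipid droplets, had 7.55 and 3.08 TPM in IM, against 131, 231, 209 and 263 TPM in AM. Krt19 and Krt79, keratins found in AM, had log2 fold changes of -4.97 and -4.69. All these genes were low in both IM libraries and did not overlap. The summed level of the list was 972 and 1230 TPM in IM, against 8902 to 20862 TPM in AM and 1053 to 1176 TPM in iMo. Chil3, a chitinase-like lectin and the most abundant gene of the list in AM, had 269 and 534 TPM in IM, against 3708, 9771, 7189 and 9354 TPM in AM. Tmem37 was the exception, with 66.1 and 39.3 TPM in IM, against 0.246, 0, 0 and 2.23 TPM in AM (difference 5.2 on the log2 scale, SE 0.75, limma adjusted p = 7.16e-06). It is on the list as an AM gene, and in these libraries it was high in IM and near 0 in AM.

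The transcription factors that set macrophage identity differed in both directions. Of 44 tested, 16 were higher in IM, 12 were lower and 16 were not called. Maf, a factor that holds macrophages in a differentiated state, was among the higher ones. It had 55.4 and 36.7 TPM in IM, against 0, 0.141, 0 and 1.09 TPM in AM, and 22.4 and 13 TPM in iMo. It was near 0 in every AM library. Klf2, a factor that restrains inflammatory genes, had 208 and 218 TPM in IM, against 5.51, 15.2, 12.9 and 12.8 TPM in AM, while Runx3, Ahr, Mef2c and Spic were higher in IM by 3.62, 3.11, 2.97 and 3.4 on the log2 scale. Spic is known from the iron-recycling macrophages of spleen and bone marrow. On the AM side, Bhlhe41, a repressor needed for AM self-renewal, had 1.62 and 2.49 TPM in IM, against 18.5, 20.9, 16.1 and 22.4 TPM in AM (difference -2.75 on the log2 scale, SE 0.38, limma adjusted p = 4.16e-06). Its relative Bhlhe40 fell by 2.26. Pparg had 9.7 and 10.8 TPM in IM, against 35.7, 110, 57 and 77 TPM in AM, and its partner Rxra fell by 2.05. Tcf7l2, a mediator of Wnt signals, had 5.61 and 11.2 TPM in IM, against 54.2, 64.7, 57.7 and 41 TPM in AM. Tfec, a factor of the microphthalmia family, and Egr2, a zinc-finger factor of AM, had log2 fold changes of -2.47 and -2.13. No library of one group reached the range of the other for these AM factors.

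Immediate early genes, which respond quickly to stimulation and to cell handling, were mostly higher in IM. Of 22 tested, 16 were higher and 1, Egr2, was lower. Egr1 had 28 and 18.2 TPM in IM, against 1.54, 1.83, 0.812 and 2.77 TPM in AM, and 4.39 and 9.93 TPM in iMo. Socs3, a feedback inhibitor of cytokine signals, had 63.7 and 39 TPM in IM, against 2.57, 5.83, 4.95 and 6.86 TPM in AM. Junb, an AP-1 subunit, had 335 and 223 TPM in IM, against 31.6, 61.8, 46.9 and 60 TPM in AM. Both were high in both IM libraries, without overlap.

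Receptors for cytokines and growth factors were more often higher than lower in IM, and the share lower was near the 11% of all genes. Of 31 cytokine and growth factor receptors tested, 14 were higher in IM and 5 lower, with 3 lower without IM library A and 3 without B. Csf1r, the CSF1 receptor, had 186 and 210 TPM in IM, against 34, 44.1, 62.2 and 59.5 TPM in AM (difference 2.0 on the log2 scale, SE 0.4, limma adjusted p = 0.000394), and 162 and 179 TPM in iMo. Csf2rb, the shared beta chain of the GM-CSF receptor, had 73.5 and 69.6 TPM in IM, against 117, 187, 195 and 173 TPM in AM (difference -1.2 on the log2 scale, SE 0.29, limma adjusted p = 0.00263). Its close copy Csf2rb2, which may share reads, fell by 1.75. Tgfbr1, a TGF-beta receptor chain, had 9.28 and 12.5 TPM in IM, against 26.4, 42.5, 48.5 and 45.9 TPM in AM, and was called with both IM libraries but not without A (adjusted p = 0.0713 by limma). The 3 AM-side receptors were lower in both IM libraries than in any AM library. Csf1, the ligand of Csf1r, was at 10.2 and 9.43 TPM in IM, against 0.3, 0.737, 0.598 and 0 TPM in AM. Il10ra, a chain of the receptor for the restraining cytokine IL-10, had 47.1 and 83.7 TPM in IM, against 9.55, 14.5, 16.4 and 18.3 TPM in AM.

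Among 29 cytokines and growth factors tested, 8 were higher in IM and 7 lower. The interleukin-1 family split between the cell types. Il1b had 527 and 520 TPM in IM, against 5.68, 86.7, 48.8 and 40.1 TPM in AM (difference 3.99 on the log2 scale, SE 0.73, limma adjusted p = 0.000137), and 83.3 and 94.6 TPM in iMo. Il1a had 0.387 and 1.79 TPM in IM, against 5.27, 29.4, 18.3 and 30.5 TPM in AM (difference -3.23 on the log2 scale, SE 0.52, limma adjusted p = 3.31e-05). Il18 had 36.8 and 54.1 TPM in IM, against 162, 413, 215 and 463 TPM in AM. Thus Il1b was higher in both IM libraries, and Il1a and Il18 in all 4 AM libraries. The growth factors Pdgfa, Pdgfb, Vegfa and Igf1 were higher in IM by 4.07, 2.65, 2.8 and 2.01 on the log2 scale, and Nrg4, a ligand of the receptor ErbB4, was lower (log2 fold change -2.49).

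Chemokines were mostly on the IM side: of 21 tested, 13 were higher and 2 lower. Ccl8 had 308 and 231 TPM in IM, against 0, 1.01, 0 and 1.12 TPM in AM and 0 in both iMo libraries. Cxcl13, which draws B cells, had 52.6 and 124 TPM in IM, against 0, 0.885, 0 and 0 TPM in AM. Ccl7 had 39.3 and 40.6 TPM in IM and was listed at 0 in all AM libraries. Ccl2, which draws monocytes through Ccr2, had 69.3 and 65.9 TPM in IM, against 0.312, 0, 0 and 0 TPM in AM, and 61.2 and 42.4 TPM in iMo. Ccl8, Ccl7 and Cxcl13 were near 0 in both AM and iMo, while Ccl2 was shared with iMo. Both chemokines lower in IM, Ccl22 and Cxcl3, lost the call in many of the alternatives. Ccl22 lost it with either other pseudocount, with no filter, without a trend, with the title code as a covariate, and without IM library A or B or AM library N, A or C, with limma adjusted p of 0.0505 to 0.321. Cxcl3 lost it with a pseudocount of 0.1 and without IM library A or B or AM library A, C or D, with limma adjusted p of 0.0505 to 0.119. Cxcl3 was already low in the AM library N at 2.22 TPM, beside 32.8, 39.4 and 37.5 TPM in the other AM libraries. Pf4, platelet factor 4, had 921 and 594 TPM in IM, against 2.35, 12.3, 1.71 and 12.6 TPM in AM. It is known from platelets as well as from resident macrophages, and the markers on the platelet list summed to 11.5 and 7.54 TPM in IM, against 1.41, 4.1, 1.57 and 1.11 TPM in AM, and 1.04 and 1.11 TPM in iMo. No gene of that list passed the filter, and the part of platelets in the result was not tested.

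Receptors for chemokines, complement fragments and purines followed the same side. Of 35 tested, 18 were higher in IM and 4 lower. Cx3cr1, the fractalkine receptor, had 56.2 and 56 TPM in IM, against 0.433, 0.409, 0.399 and 0.453 TPM in AM, and 75.5 and 54.5 TPM in iMo. C3ar1, the receptor for the complement fragment C3a, had 27.4 and 19.8 TPM in IM, against 0.203, 0, 0.116 and 0.527 TPM in AM, and 3 and 0.925 TPM in iMo. Cx3cr1 was thus shared with iMo, and C3ar1 was highest in IM. The 4 lower in IM were Fpr1, a receptor for bacterial formyl peptides, and the nucleotide receptors P2ry14, P2ry2 and P2ry13, the last of which was not called without IM library B. P2ry14 had 5.11 and 3.94 TPM in IM, against 20.4, 73, 36.3 and 30.4 TPM in AM. With quantile normalization 9 were lower, and with the rescaling without Rn45s and Lars2 8 were.

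Uptake receptors showed different members in the 2 populations. Of 15 scavenger receptors tested, 4 were higher in IM and 4 lower, with 2 of 14 tested lower without IM library B. Cd163, the receptor for haemoglobin-haptoglobin complexes, had 25.7 and 18.1 TPM in IM, against 0.084, 0, 0.223 and 0.253 TPM in AM (difference 4.31 on the log2 scale, SE 0.33, limma adjusted p = 1.11e-09). Stab1, stabilin-1, had 21.3 and 16.1 TPM in IM, against 0.205, 0.258, 0.126 and 0.286 TPM in AM. Olr1, the receptor for oxidized low-density lipoprotein, had 0.855 and 1.81 TPM in IM, against 36.5, 62.1, 66.6 and 62 TPM in AM (difference -4.62 on the log2 scale, SE 0.39, limma adjusted p = 3.88e-09). Marco, which binds bacteria and dust, had 4.39 and 2.46 TPM in IM, against 111, 39.2, 53.6 and 43.3 TPM in AM. None of these 4 overlapped between the groups. Of 29 C-type lectins and Siglecs, 12 were higher in IM and 5 lower, while 24 were tested without IM library A or without B and 6 of those were higher, with 3 lower without B. Mgl2, a galactose-binding lectin, had 101 and 93 TPM in IM, against 0.081, 0, 0 and 0.736 TPM in AM, and Clec10a, a related lectin, was higher by 5.08. Clec1b and Siglec1 were lower in IM, with log2 fold changes of -3.13 and -2.68.

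Genes for the clearance of dying cells differed in both directions. Of 24 efferocytosis genes tested, 8 were higher in IM and 8 lower, and without IM library B 5 were higher and 5 lower of 23 tested, with 5 lower also without A. The higher ones were the C1q chains, the bridging protein Gas6, Stab1, Cd300a, Cd300lb and the transporter Abca7. Cd300lb was not called without IM library A (limma adjusted p = 0.118), without B (0.0667) or without the 2 AM libraries of highest Rn45s share (0.0813). Abca7 was not called without B (limma adjusted p = 0.112) or with the rescaling without Rn45s and Lars2 (0.0516). Gas6, a ligand of the TAM receptors, had 28.3 and 25.7 TPM in IM, against 0.145, 0.198, 0 and 1.54 TPM in AM. Its receptors Axl and Mertk were lower in IM. Axl had 22.8 and 28.3 TPM in IM, against 152, 204, 292 and 367 TPM in AM (difference -3.19 on the log2 scale, SE 0.38, limma adjusted p = 5.77e-07). Mertk had 10.6 and 14.9 TPM in IM, against 51.5, 59.8, 78.2 and 86.4 TPM in AM, and 1.24 and 1.09 TPM in iMo. Both receptors were lower in IM than in any AM library, and Mertk was higher in IM than in iMo.

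Of 19 complement genes tested, 11 were higher in IM and 3 lower, with 7 higher and 1 lower of 16 tested without IM library A. Beyond C1q, C4b, a later component of the classical pathway, had 10.1 and 6.9 TPM in IM, against 0.14, 0.096, 0.186 and 0.211 TPM in AM, and was higher in both IM libraries by 3.02 on the log2 scale. The integrin chains of the complement receptors split: Itgam (CD11b) had 60.3 and 55.2 TPM in IM, against 0.349, 0.44, 0.321 and 0.365 TPM in AM, and Itgax (CD11c) had 9.9 and 10.9 TPM in IM, against 100, 80.4, 108 and 92.4 TPM in AM. Each chain separated the groups without overlap. Of 33 integrins and adhesion molecules, 13 were higher in IM and 7 lower. F11r, a junctional adhesion molecule, and the epithelial adhesion genes Epcam and Cdh1 were among the lower, as the description of epithelial genes gives.

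**Figure D3:**
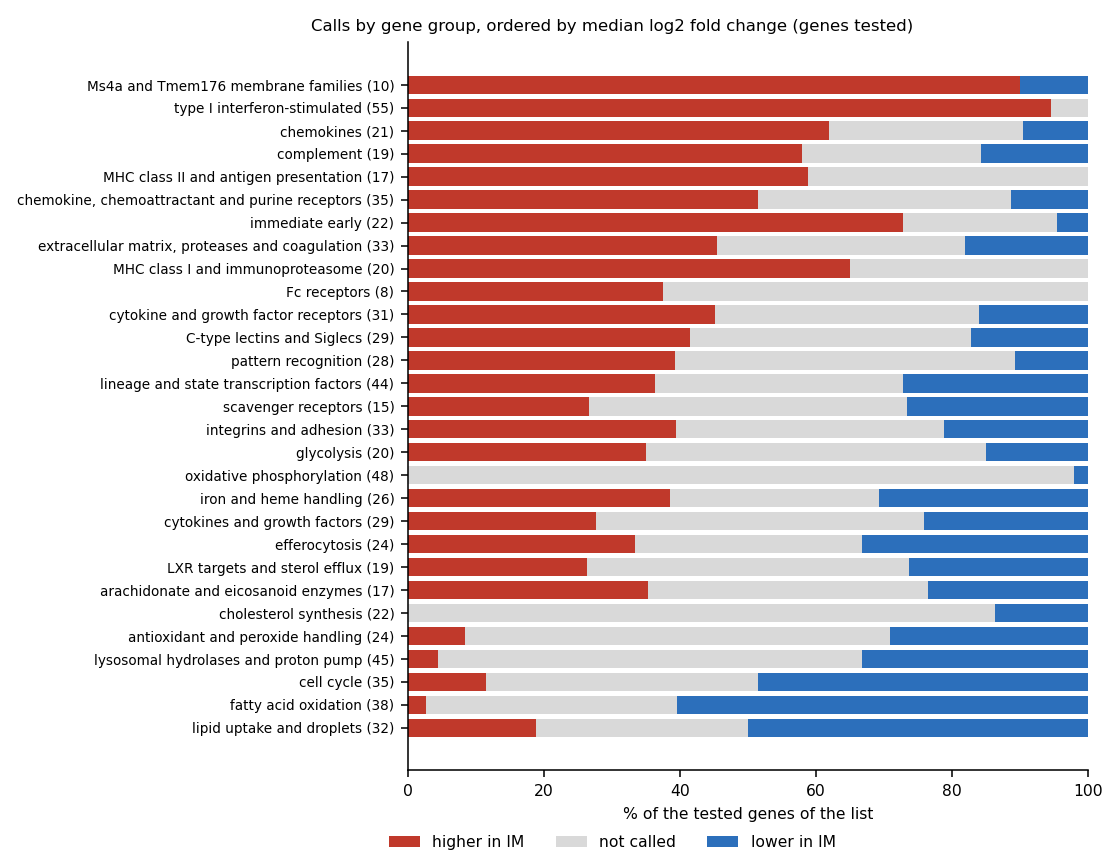
Share of the tested genes of each of 29 role lists that were higher in IM (red), not called (grey) or lower in IM (blue), ordered by the median log2 fold change, with the number of genes tested in brackets. Ms4a and Tmem176 families, interferon-stimulated genes and chemokines are at the top, and fatty acid oxidation and lipid uptake and droplets at the bottom.

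Genes of lipid handling were mostly lower in IM. Of 32 genes of lipid uptake and droplets tested, 16 were lower and 6 higher, and of 38 genes of fatty acid oxidation 23 were lower and 1 was higher, with medians of -1.23 and -1.12. Fatty acid oxidation had 13 lower without IM library A and 15 without B. Fabp1, a fatty acid-binding protein best known from liver, had 10.5 and 12.7 TPM in IM, against 265, 277, 170 and 527 TPM in AM. Lpin1, a phosphatidate phosphatase, had 4.65 and 3.27 TPM in IM, against 27.7, 37, 44 and 49.5 TPM in AM (difference -3.01 on the log2 scale, SE 0.3, limma adjusted p = 4.13e-08). Mgll, which splits monoglycerides, had 5.54 and 10.3 TPM in IM, against 46.9, 80.3, 66.5 and 79.1 TPM in AM. These were low in both IM libraries. Acaa1b, a peroxisomal thiolase, had 2.76 and 1.42 TPM in IM, against 88.9, 87.7, 76.5 and 91.6 TPM in AM (difference -4.85 on the log2 scale, SE 0.41, limma adjusted p = 4.48e-09). Ucp3, a mitochondrial carrier, had 0.312 and 0.24 TPM in IM, against 13.8, 13.4, 16.3 and 14.6 TPM in AM. Of the mitochondrial enzymes of the pathway, Cpt2, Hadha and Acads had log2 fold changes of -1.65, -1.46 and -1.59, all called. The 6 lipid genes higher in IM included Lipe, hormone-sensitive lipase, with 14.9 and 20.5 TPM in IM, against 1.24, 1.91, 2.33 and 2.12 TPM in AM, and Hilpda, an inhibitor of lipolysis, with 44.2 and 44.8 TPM in IM, against 3.94, 17.7, 7.11 and 6.92 TPM in AM.

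Sterol genes were divided. Of 19 LXR targets and sterol efflux genes, 5 were higher and 5 lower, with 3 lower without IM library B. Abcg1, the sterol exporter of AM, had 18.9 and 17.7 TPM in IM, against 242, 199, 255 and 237 TPM in AM (difference -3.6 on the log2 scale, SE 0.36, limma adjusted p = 4.13e-08). Ch25h, which makes 25-hydroxycholesterol, had 0.564 and 3.48 TPM in IM, against 19.8, 53.1, 28.4 and 22.2 TPM in AM. Apoe and Apoc2 were on the other side, with Apoc2 at 168 and 103 TPM in IM, against 0.866, 3.55, 0.692 and 6.29 TPM in AM. Cyp27a1, a sterol hydroxylase, had 30 and 41.7 TPM in IM, against 2.01, 0.797, 1.29 and 2.65 TPM in AM. Genes of cholesterol synthesis were mostly not called, with 3 of 22 lower and none higher, 6 lower with quantile normalization, 7 with the rescaling without Rn45s and Lars2 and none without IM library A.

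Mitochondrial and lysosomal genes gave smaller differences. Of 48 genes of oxidative phosphorylation tested, 1 was lower and none higher, and their median was 0.04, but 10 were lower with quantile normalization and 13 with the rescaling without Rn45s and Lars2. Of 45 lysosomal genes, 15 were lower and 2 higher, with 9 lower without IM library A and 9 without B, and with 26 and 25 lower under those 2 scalings. Atp6v0d2, a subunit of the proton pump, had 9.15 and 12.9 TPM in IM, against 191, 535, 330 and 391 TPM in AM. Ctsk, cathepsin K, had 12.1 and 13 TPM in IM, against 154, 305, 268 and 226 TPM in AM. Ctsd, cathepsin D, had 796 and 613 TPM in IM, against 1914, 4164, 3560 and 5461 TPM in AM. All 3 were lower in both IM libraries than in any AM library. Cst3, the secreted protease inhibitor cystatin C, was higher in IM, with 2961 and 3240 TPM, against 535, 1289, 707 and 932 TPM in AM.

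Of 20 glycolysis genes, 7 were higher in IM and 3 lower. Slc2a3, a glucose transporter, had 13.1 and 9.21 TPM in IM, against 0.19, 0, 0.252 and 0.287 TPM in AM, and 0.466 and 0.447 TPM in iMo. Without IM library A or B, 3 and 4 glycolysis genes were higher. Aldoc, an aldolase, had 0.285 and 0.879 TPM in IM, against 13.6, 13.2, 16.6 and 18.7 TPM in AM. Neither gene overlapped. Of 26 genes of iron and heme handling, 10 were higher and 8 lower. Slc40a1, the iron exporter ferroportin, had 26.4 and 22.4 TPM in IM, against 1.15, 0.91, 1.92 and 1.18 TPM in AM (difference 3.49 on the log2 scale, SE 0.39, limma adjusted p = 2.15e-07), and 0 and 0.131 TPM in iMo. Slc11a1, a metal transporter of phagosomes, had 93.8 and 122 TPM in IM, against 0.327, 0.224, 3.27 and 2.72 TPM in AM. Alas1, the first enzyme of heme synthesis, had 28.3 and 19.8 TPM in IM, against 58.3, 118, 93.8 and 109 TPM in AM, and Hebp1, a heme-binding protein, fell by 3.12. Without IM library A 4 of 24 iron genes tested were lower, and without B 4 of 25.

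Enzymes of arachidonate metabolism gave 6 higher and 4 lower of 17 tested. Pla2g7, which degrades platelet-activating factor, had 227 and 223 TPM in IM, against 0.459, 1.34, 2.88 and 1.49 TPM in AM. Hpgd, which inactivates prostaglandins, had 133 and 166 TPM in IM, against 1.6, 18.5, 6.7 and 4.96 TPM in AM. Ltc4s, leukotriene C4 synthase, had 64 and 60.1 TPM in IM, against 262, 437, 306 and 454 TPM in AM (difference -2.5 on the log2 scale, SE 0.47, limma adjusted p = 0.000182), and Alox5, 5-lipoxygenase, fell by 1.9. Pla2g7 and Hpgd were higher in both IM libraries than in any AM library, and Ltc4s and Alox5 lower. Of 24 antioxidant genes, 2 were higher and 7 lower, with 4 lower without IM library A and 4 without B. Gpx3, a secreted glutathione peroxidase, had 120 and 95.8 TPM in IM, against 1.63, 12.1, 6.19 and 10.5 TPM in AM. Gsto1, a glutathione transferase, was lower (log2 fold change -2.26).

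Cell cycle genes were lower more often than higher, 17 against 4 of 35 tested, with 8 lower and 1 higher without IM library A and 26 with quantile normalization. Ccnb2, a mitotic cyclin, had 1.49 and 4.21 TPM in IM, against 17.7, 28.7, 28 and 29.2 TPM in AM (difference -2.87 on the log2 scale, SE 0.37, limma adjusted p = 1.68e-06). Mki67, the proliferation antigen Ki-67, had 1.51 and 2.62 TPM in IM, against 9.61, 12, 10.7 and 6.47 TPM in AM, and 2.01 and 1.4 TPM in iMo. The D-type cyclins differed among themselves. Ccnd1 had 14.4 and 18.9 TPM in IM, against 1.05, 1.75, 0.921 and 1.04 TPM in AM, and Ccnd2 had 16 and 19.4 TPM in IM, against 35.6, 83.5, 75.2 and 82 TPM in AM.

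Pattern receptors gave 11 higher and 3 lower of 28, with 4 higher without IM library B and 6 without the 2 AM libraries of highest Rn45s share. The share lower was near the 11% of all genes. Tlr9, the receptor for unmethylated DNA, had 6.36 and 13.2 TPM in IM, against 0.216, 0.147, 0 and 0 TPM in AM. Tlr2, the receptor for bacterial lipoproteins, had 22.4 and 25.7 TPM in IM, against 80.4, 140, 190 and 210 TPM in AM (difference -2.55 on the log2 scale, SE 0.41, limma adjusted p = 3.2e-05). Ly86 (MD-1), a partner of a relative of the LPS receptor, had 382 and 517 TPM in IM, against 13.7, 35.1, 26.2 and 40.6 TPM in AM. Tlr9 and Ly86 were above every AM library in both IM libraries, and Tlr2 below.

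Class II antigen presentation was on the IM side, with 10 of 17 genes higher and none lower. H2-Ab1, a class II beta chain, had 2587 and 4200 TPM in IM, against 78.4, 184, 125 and 294 TPM in AM, and 374 and 2162 TPM in iMo. Ciita, the master regulator of class II genes, had 22 and 37.5 TPM in IM, against 1.44, 1.45, 1.77 and 2.1 TPM in AM. Cd86, a costimulator, had 24.7 and 24.6 TPM in IM, against 0.839, 3.44, 3.94 and 6.93 TPM in AM. The groups did not overlap for these 3 genes, while iMo libraries A and B differed several-fold for H2-Ab1. Of 20 genes of class I presentation, 13 were higher and none lower, but without IM library B 2 were higher, and without the 2 AM libraries of highest Rn45s share 6 were. Psmb9, an immunoproteasome subunit, had 115 and 356 TPM in IM, against 31.9, 66.6, 50 and 70.9 TPM in AM, and was not called without IM library B (adjusted p = 0.238 by limma).

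Interferon-stimulated genes were nearly all on the IM side, with 52 of 55 higher in IM and none lower, a median of 3.38, and 42 higher without IM library B. Slfn1, a member of the Schlafen family, had 151 and 175 TPM in IM, against 0.594, 1.08, 0.264 and 0.898 TPM in AM (difference 6.6 on the log2 scale, SE 0.32, limma adjusted p = 1.33e-12). Ifitm3, an antiviral membrane protein, had 1829 and 2326 TPM in IM, against 3.68, 30.2, 3.87 and 10.5 TPM in AM, and 4778 and 5168 TPM in iMo. Irf7, the factor that amplifies interferon, had 124 and 277 TPM in IM, against 2.23, 2.49, 1.08 and 3.37 TPM in AM, and 190 and 297 TPM in iMo. These genes were high in both IM and both iMo libraries. Gbp2, a guanylate-binding protein, had 24.9 and 300 TPM in IM, against 5.72, 8.17, 9.39 and 8.8 TPM in AM, and 18.3 and 330 TPM in iMo, so that in both IM and iMo the library B was the high one. It was not called without IM library B (adjusted p = 0.303 by limma).

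Monocyte genes were also high in IM. Of 11 classical monocyte genes tested, 9 were higher in IM and 1, Ms4a8a, was lower, with a median of 6.27, and of 13 nonclassical monocyte genes 10 were higher. Ly6c2, a surface marker of classical monocytes whose copy Ly6c1 is an endothelial gene and may share reads, had 531 and 2048 TPM in IM, against 0.305, 5.01, 2.44 and 2.77 TPM in AM, and 2046 and 4892 TPM in iMo. Ccr2, the receptor that brings monocytes into tissue, had 323 and 251 TPM in IM, against 1.95, 4.85, 2.08 and 3 TPM in AM, and 931 and 549 TPM in iMo. Plac8 had 1769 and 3456 TPM in IM, against 1.63, 8.16, 0.723 and 4.93 TPM in AM, and 3736 and 6436 TPM in iMo. All 3 were far above AM. Ccr2 and Plac8 were lower in both IM libraries than in either iMo library, while Ly6c2 in IM library B was at the level of iMo library A. Ace, angiotensin-converting enzyme, known from nonclassical monocytes and capillary endothelium, had 61.7 and 88.8 TPM in IM, against 4.41, 7.97, 8.46 and 10.7 TPM in AM, and 14.5 and 32.6 TPM in iMo. Of 10 tested genes of the Ms4a and Tmem176 membrane families 9 were higher. Ms4a6b had 192 and 286 TPM in IM, against 0.446, 0.305, 0 and 0.674 TPM in AM, and 480 and 418 TPM in iMo. IM correlated with iMo at r = 0.842 to 0.893 across genes. Monocyte transcripts, summed over the classical list, were at 3869 and 6927 TPM in IM, against 164 to 484 TPM in AM and 10241 to 14369 TPM in iMo. Interferon-stimulated genes and many chemoattractant receptors were also higher in IM than in AM. Between the IM libraries, 6 of 11 classical monocyte genes and 16 of 29 such receptors were higher in A, while the classical list's sum was higher in B. Of 52 interferon-stimulated genes, 50 were higher in B, and the sum of their whole list was 6834 and 10398 TPM in IM. The part of monocytes in those results was not tested.

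Transcripts of mature neutrophils were abundant in both IM libraries. Of 26 listed genes tested, 18 were higher in IM and 1, Fpr1, was lower. Their summed level was 23317 and 11696 TPM in IM, which was 5.06% and 2.57% of the column sum, against 516 to 1203 TPM in AM and 363 to 499 TPM in iMo. Most of this came from S100a8 and S100a9, the subunits of calprotectin, which together held 4.57% and 2.32% of the column sum in IM, against 0.00324% to 0.0127% in AM. Retnlg, a neutrophil resistin-like protein, had 1219 and 461 TPM in IM, against 0, 0.849, 0 and 0 TPM in AM, and 3.06 and 0.733 TPM in iMo. Cxcr2, the neutrophil chemokine receptor, had 76.3 and 47.8 TPM in IM, against 0.985, 1.18, 1.15 and 1.86 TPM in AM, and 0.605 and 0.291 TPM in iMo. Stfa2l1, a stefin whose family members may share reads, had 59.5 and 45.9 TPM in IM and was listed at 0 in all AM and iMo libraries. The defining marker Ly6g had 10.8 and 4.48 TPM in IM and was listed at 0 in all AM libraries. These genes were far lower in AM and iMo than in IM, and each was higher in IM library A than in B.

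Some genes of the neutrophil list were high in iMo too. Cd177 had 18.1 and 13.1 TPM in IM, against 0.185, 0, 0 and 0 TPM in AM, and 54.6 and 55.4 TPM in iMo. Padi4, which citrullinates histones, had 23.8 and 18.1 TPM in IM, against 0.238, 0, 0 and 0 TPM in AM, and 17.5 and 12.6 TPM in iMo. Trem3 had 71.5 and 72 TPM in IM, against 1.32, 7.85, 7.65 and 8.69 TPM in AM, and 61.2 and 61.9 TPM in iMo. For these genes the IM level did not stand apart from iMo as it did for Retnlg and Cxcr2. Genes of granule-forming precursors gave a weaker picture: 5 of 10 tested were higher in IM, with Lcn2, lipocalin-2, at 223 and 92.3 TPM in IM, against 0.443, 1.81, 1.77 and 4.02 TPM in AM. Ngp, a granule protein of immature neutrophils, was at 1.32 and 2.03 TPM in IM and was not called. Il1r2 (98.9 and 37.9 TPM in IM, against 0, 0.368, 0 and 0 TPM in AM), Csf3r and Mmp9 are themselves on the neutrophil list and count in role lists too. Among the role lists, Il1b and Clec4d were also higher in IM, with Il1b at nearly the same level in both IM libraries. The part of neutrophils in those results was not tested.

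**Figure D4:**
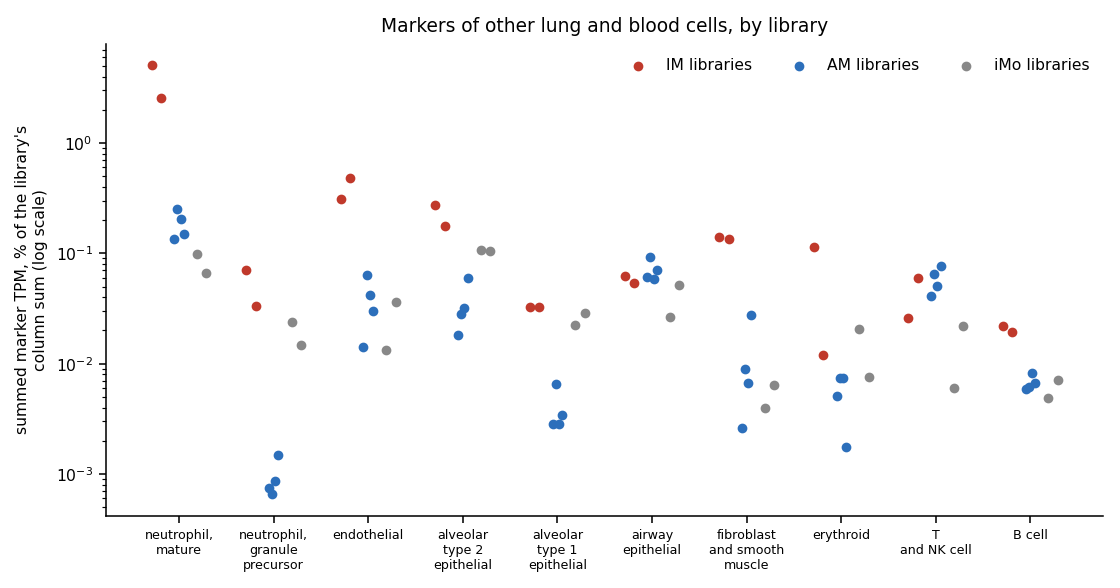
Summed TPM of the markers of 10 other cell types as a percent of each library's column sum, on a log scale, for IM (red), AM (blue) and iMo (grey) libraries. Mature neutrophil markers reach 5.06% and 2.57% in IM, and endothelial, alveolar type 2 and fibroblast sums in IM lie above every AM library.

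Endothelial transcripts were present in both IM libraries at lower levels. Of 33 genes tested, 31 were higher in IM and 2 were not called, with a median of 3.17, and of the 19 that passed the filter without IM library A or without B, 17 and 16 were higher. The summed level was 1430 and 2173 TPM in IM, or 0.31% and 0.478% of the column sum, against 54.6 to 299 TPM in AM and 67.2 to 200 TPM in iMo. Cldn5, a tight junction protein of endothelium, had 186 and 199 TPM in IM, against 1.77, 24.6, 6 and 4.8 TPM in AM, and 0.868 and 13.4 TPM in iMo. Gpihbp1, which anchors lipoprotein lipase on capillaries, had 147 and 212 TPM in IM, against 1.68, 19.4, 6.69 and 7.6 TPM in AM. Cdh5, vascular endothelial cadherin, had 30.6 and 47.8 TPM in IM, against 0.314, 4.76, 5.52 and 4.13 TPM in AM. None of these overlapped, and among the AM libraries N was the lowest for all 3. Vwf, von Willebrand factor of larger vessels, had 5.02 and 4.54 TPM in IM, against 5.88, 3.73, 8.85 and 7.02 TPM in AM, and was not called (adjusted p = 0.535 by limma). Tmem100, Plvap, Egfl7, Ramp2 and Tspan7, also endothelial genes, were higher by 4.2, 4.06, 4.06, 4.27 and 4.33 on the log2 scale. Among the receptor, adhesion and matrix genes, S1pr1, Pecam1, Timp3 and Sparc were also higher in IM, while those lists also held genes lower in IM. The part of endothelial cells in those results was not tested.

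Epithelial transcripts were fewer and divided. Of 15 alveolar type 2 genes listed, 8 were tested and 6 were higher in IM, with 3 of 7 tested higher without IM library A. Sftpc, surfactant protein C, had 479 and 189 TPM in IM, against 12.9, 21.9, 16.3 and 110 TPM in AM, and it was not called without IM library A (adjusted p = 0.105 by limma) or without the 2 AM libraries of highest Rn45s share (0.0569). Sftpa1 had 28.6 and 9.11 TPM in IM, against 0.676, 2.77, 1.44 and 3.68 TPM in AM, and 0 and 0.16 TPM in iMo. Both surfactant genes were higher in IM library A than in B, without overlap with AM. Other genes of the list did not point to epithelium alone: Napsa had 192 and 223 TPM in IM and 418 and 419 TPM in iMo, Lyz1 had 259 and 170 TPM in IM and 65.7 and 110 TPM in iMo and may share reads with Lyz2, and Cbr2 is also an interstitial macrophage gene. The summed list was 799 to 1254 TPM in IM, against 70 to 307 TPM in AM and 542 to 586 TPM in iMo. Of 12 alveolar type 1 genes 5 were tested and 4 were higher, while 3 were tested without IM library A or without B and 2 of those were higher. Ager, the receptor RAGE, had 26.1 and 5.59 TPM in IM, against 1.03, 3.58, 0.317 and 1.8 TPM in AM. Hopx had 65.6 and 78.2 TPM in IM, but 110 and 146 TPM in iMo. Scgb1a1, the club cell secretoglobin, had 78.8 and 53.2 TPM in IM, against 31.3, 18.8, 15.1 and 20.8 TPM in AM. It was the airway gene called, of 3 tested, and it lost the call under quantile normalization (limma adjusted p = 0.0926), under rescaling without Rn45s and Lars2 (0.161), without IM library A (0.295) and without B (0.0951), among other alternatives.

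General epithelial genes went the other way. Epcam had 1.86 and 2.58 TPM in IM, against 17.3, 54.4, 40.9 and 91.4 TPM in AM (difference -3.8 on the log2 scale, SE 0.54, limma adjusted p = 5.79e-06). Cdh1, epithelial cadherin, had 0.861 and 0.133 TPM in IM, against 7.15, 9.04, 9.03 and 11.5 TPM in AM. Both are genes that AM themselves are known to make. Both were low in both IM libraries and higher in every AM library, and they were the 2 of 9 general epithelial genes tested.

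Fibroblast and smooth muscle transcripts were also found in IM. Of 20 genes listed 10 passed the filter, and these 10 were higher in IM, beside 15% of all genes. Without IM library A, or without B, only 4 passed it, so for most of these genes the count is no test. Their list summed to 616 to 655 TPM in IM, against 10.1 to 142 TPM in AM and 20.2 to 35 TPM in iMo. Mgp, matrix Gla protein, had 306 and 348 TPM in IM, against 3.27, 11.7, 8.15 and 73.1 TPM in AM. Inmt, a methyltransferase of lung fibroblasts, had 203 and 178 TPM in IM, against 1.1, 15.1, 10.8 and 43.3 TPM in AM. The AM library D was the highest of the AM libraries for both, and still below IM. Col3a1, a collagen chain, was at 8.97 and 6.06 TPM in IM, against 0.34, 0.649, 0.362 and 5.34 TPM in AM. In the matrix and protease list, 15 of 33 were higher and 6 lower, with 3 lower without IM library B. The lower ones included F7. The matrix and protease list summed to 4543 to 4792 TPM in IM, against 1499 to 3599 TPM in AM and 5175 to 5552 TPM in iMo. The part of fibroblasts in that result was not tested.

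Markers of blood and lymphoid cells were low. Globin transcripts differed between the IM libraries: Hbb-bs, whose copy Hbb-b1 may share its reads, had 191 and 17.6 TPM in IM, against 6.3, 11.3, 8.64 and 2.68 TPM in AM. Of 5 erythroid genes tested 4 were higher, and none without IM library A. Cd79b, a chain of the B cell receptor, had 60.9 and 47 TPM in IM, against 0.612, 1.25, 2.04 and 3.24 TPM in AM, and 19.5 and 24.5 TPM in iMo. Of 5 B cell genes tested 4 were higher, while 2 were tested without IM library A or without B and 1 of those was higher. Cd22 was lower (log2 fold change -2.39). Gzma, a granzyme of cytotoxic cells, had 27 and 45.6 TPM in IM, against 0.571, 2.34, 2.85 and 3.24 TPM in AM. Cd2, listed for T and NK cells, was an AM gene here, with 22.7 and 16 TPM in IM, against 151, 298, 201 and 367 TPM in AM. Of 10 dendritic cell genes tested 5 were higher and 1 lower, with 3 higher and none lower of the 8 tested without IM library A or without B. No gene of the eosinophil, platelet or mesothelial lists was tested.

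The 2 IM libraries differed from each other by gene list. Over 6943 genes at 5 TPM or more on average in IM, the median log2 ratio of A over B was -0.04. Mature neutrophil genes had a median of 0.65, with 18 of 20 higher in A. Endothelial genes had a median of -0.53, with 29 of 33 higher in B. The neutrophil and endothelial transcripts were thus each higher in a different IM library, while the sums of both lists were above every AM library in both. Alveolar type 2 genes had a median of 0.92, with 7 of 10 higher in A, fibroblast genes 0.66, with 11 of 13 higher in A, and erythroid genes 3.24, with 5 of 5 higher in A. Interferon-stimulated genes had a median of -0.8, with 50 of 52 higher in B, and class I genes -0.95, with 19 of 19 higher in B. The identity lists were closer to 0, at 0.22 for interstitial macrophage genes, with 30 of 35 higher in A, and -0.13 for alveolar macrophage genes, with 12 of 20 higher in B. With 1 library on each side these ratios have no replicate check and no test.

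**Figure D5:**
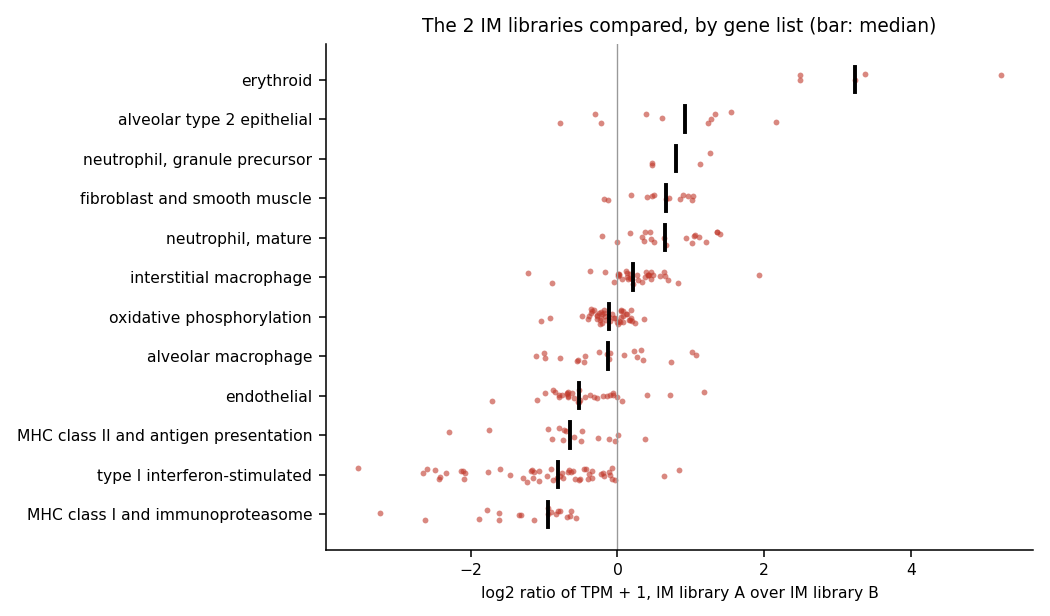
Log2 ratio of TPM + 1 in IM library A over IM library B for genes at 5 TPM or more on average in IM, by list, with a bar at the median. Erythroid, alveolar type 2, neutrophil and fibroblast genes lie to the right, and endothelial, class II, interferon-stimulated and class I genes to the left.

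The lists held 1089 genes, so most genes tested lay outside them. So did most calls, 976 of the genes higher in IM and 809 of those lower. Of 126 tested genes on lists of other cell types, 94 were among the genes higher in IM and 6 among the lower. Among all genes the shares were 15% and 11%. Some of the 126 passed the filter only with both IM libraries in, and for such genes the call is no test. Without IM library A, or without B, 19 endothelial genes passed instead of 33, and 4 fibroblast genes instead of 10. The mature neutrophil list kept its 26. Outside the lists, Fyb, an adaptor of immune receptors, had 105 and 116 TPM in IM, against 0.351, 0.616, 0.3 and 0.341 TPM in AM (difference 6.32 on the log2 scale, SE 0.43, limma adjusted p = 1.76e-10), and 181 and 180 TPM in iMo. Marcks, a substrate of protein kinase C, had 198 and 120 TPM in IM, against 0.597, 2.93, 0.715 and 1.35 TPM in AM. Sorl1, a sorting receptor, had 44.7 and 35.1 TPM in IM, against 0.257, 0.287, 0.233 and 0.318 TPM in AM. Fgl2, Plbd1, Tspan13 and Susd3 were also higher, and all 7 were present in iMo. Ltb, lymphotoxin beta, had 63.5 and 55.4 TPM in IM, against 1.03, 3.28, 0 and 1.04 TPM in AM, and 5.06 and 7.7 TPM in iMo.

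Outside the lists, the genes described next were lower in IM. Cpne5, a calcium-binding copine, had 0.692 and 0.4 TPM in IM, against 24.7, 39.1, 42.9 and 45.2 TPM in AM (difference -4.63 on the log2 scale, SE 0.38, limma adjusted p = 2.46e-09). Kcna3, the potassium channel Kv1.3, had 3.48 and 0.895 TPM in IM, against 50.3, 34.9, 86 and 65.9 TPM in AM. Slc6a4, the serotonin transporter, had 0.557 and 1.29 TPM in IM, against 21.5, 40.8, 38 and 34.8 TPM in AM. All 3 were low in both IM libraries, without overlap. Ffar4, a receptor for long-chain fatty acids, had 1.64 and 2.53 TPM in IM, against 23.4, 66.3, 33.7 and 94.1 TPM in AM. Gal, the neuropeptide galanin, had 4.88 and 7.53 TPM in IM, against 74, 226, 92.1 and 211 TPM in AM. Phgdh, the first enzyme of serine synthesis, had 0.409 and 0.316 TPM in IM, against 17.1, 14, 13.4 and 35.3 TPM in AM, and 0.33 and 0.238 TPM in iMo. Mcoln3, a lysosomal channel, B3gnt7, a glycosyltransferase, and Cyb561a3, a lysosomal cytochrome, had log2 fold changes of -4.04, -4.6 and -4.5. Plet1os, which lies antisense to the AM gene Plet1, fell by 4.74, but reads of the pair cannot be told apart without strand.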

How the data were processed

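RNA of sorted lung macrophages was sequenced after Smart-seq2 amplification. The authors deposited 1 table of TPM values per gene and library, made on mm10 with STAR and HOMER, per the submitters' processing notes, which give no versions. How TPM was scaled is not given in the sources used here. Of 45 libraries, 18 columns for intranasal LPS correlated with the others at r = 0.0097 to 0.025 across rows and were left out. From the deposited TPM, log2(TPM + 1) was computed for the other 27 libraries in 12 groups, genes at 5 TPM or more in at least 2 libraries were kept (8937 of 23594), and limma 3.58.1 in R 4.3.3 fitted 1 mean per group, with a trended prior and Benjamini-Hochberg adjustment over all genes tested. A fold change on this scale understates the change of low genes. The fit was tested on simulated data. The report names C1qa, Folr2, Siglecf and Ear1, list members with large changes or levels, outside the 49 lists the 20 most changed genes each way, and the 15 furthest above both AM and iMo. It gives values for some of these, and other list members were added after their values were seen. The members and lists were chosen with earlier results of these data known. The alternatives were other scalings, pseudocounts, filters, library sets, weights, a covariate for the title code, and leaving out each library in turn.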

Additional observations from a re-analysis of the deposited data

Results flagged for a closer look

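Among the 4 AM libraries, some values stood apart from the other libraries of the group by a gap test on the range, which flags about 1 in 20 groups by chance; of 186 values examined, 14 did. The library N was the lowest for most of them. It was at 5.86 TPM for Nrg4, 2.22 TPM for Cxcl3, 36.5 TPM for Olr1, 34.6 TPM for Hadha and 17.7 TPM for Ccnb2. It was also the lowest at 35.6 TPM for Ccnd2, 104 TPM for Ms4a8a, 1.32 TPM for Trem3 and 0.314 TPM for Cdh5, and the summed classical monocyte markers were 164 TPM there. Library C was the lowest for Ear1 at 181 TPM and the highest for Abca7 at 8.53 TPM. Library D was the highest for Runx3 at 1.02 TPM and for Col3a1 at 5.34 TPM. In these AM libraries Rn45s held 30.4% of the column sum in N, 6.48% in A, 23.8% in C and 6.9% in D, and its part in these values was not tested.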

How the results depend on the processing

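The number of genes called between IM and AM was 2326, and it was 3493 with quantile normalization (1992 lower in IM), 3494 with TPM rescaled without Rn45s and Lars2 (2191 lower) and 1479 with a filter of at least 10 TPM in 2 of the 6 libraries (792 higher). With no filter 2091 genes were higher, and with array weights 1506 were lower; the cause was not tested. Leaving out 1 library in turn gave 1425 to 2420 calls, 804 to 1374 of them higher and 593 to 1212 lower, with 16 to 31 endothelial and 3 to 6 alveolar type 2 genes higher; without an IM library fewer genes passed the filter, 19 against 33 endothelial and 7 against 8 alveolar type 2. Without an IM library, the remaining 1 was assumed to vary like the other groups. Over 98 counts of list members and 20 alternatives, 1758 of 1960 pairs stayed within 1.5 times the reported count, 119 were smaller and 83 larger. Of the genes named with a fold change or test, none that was called changed direction under any of these alternatives. Leaving out the 2 AM libraries of highest Rn45s share was chosen after seeing the data. No paired analysis was possible because IM and AM before LPS share only 1 title code and letter. TPM carries no read depth, so no counting error can be given for low values.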
